A study of Mus musculus with 10 samples.

Results

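The genes described here are 10 transcription factors and markers of Cajal-Retzius cells, namely Trp73, Lhx1, Lhx1os, Lhx5, Nhlh2, Ebf2, Ebf3, Ndnf, Calb2 and Cacna2d2, out of 53379 genes counted in each library. Reelin and the Zic genes, which Cajal-Retzius cells also express, were left out of the group. The 10 genes were chosen by their higher counts in cKO than in control libraries, so their differences between the genotypes are given as a description, without a test.

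Cajal-Retzius cells are early-born neurons of the marginal zone, the outermost layer of the embryonic cortex, and secrete reelin, an extracellular protein that guides migrating projection neurons. They arise at the borders of the cortical sheet, in the cortical hem, the septum, the antihem and the thalamic eminence, and spread tangentially beneath the meninges. Their identity is set by a small number of transcription factors, several of which belong to the p53, LIM-homeodomain, bHLH and EBF families.

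RNA was sequenced from sorted cells of the Emx1+ lineage of E16 neocortex, in 3 cKO-Cdkn1c-MADM-7 embryos (cKO) and 7 control MADM-7 embryos, with 400 cells and 1 embryo per library. Both genotypes carried the MADM-7 cassettes on chromosome 7 and Emx1-Cre, in a mixed C57BL/6J, CD1 background (the labels name CD1). The cKO embryos also carried the Cdkn1c-flox allele on both copies of chromosome 7, with Cdkn1c labelled KO, whereas the locus was labelled control in the others. MADM (mosaic analysis with double markers) labels sparse cells through Cre-dependent recombination between homologous chromosomes, and GFP+, tdT+ and GFP+/tdT+ cells were sorted together. The libraries therefore hold labelled cells in which Emx1-Cre had been active, and pool cells with different copies of the parental chromosomes 7. The values are averages over sorted cells, so that more cells of a type and more RNA per cell cannot be told apart.

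Between 1738220 and 3362487 reads per library were counted on genes. Cdkn1c, the deleted gene, had 10 to 32 reads in the cKO and 116 to 369 in the control libraries, so that the genotypes did not overlap (log2 fold change -3.66, SE 0.31, edgeR adjusted p = 3.68e-06). Reads outside annotated genes made up 5.47% to 8.64% of the uniquely aligned reads in 5 libraries (cKO replicate 3 and control replicates 1, 2, 6 and 7) and 12.8% to 16.7% in the other 5. Haemoglobin reads were high in cKO replicate 1 and control replicates 2 and 5. Emx1, a transcription factor of the cortical progenitors and neurons from which the lineage takes its name, was present at 93.5 ± 55.7 CPM in cKO (SD, n = 3) and 87.9 ± 25.3 CPM in control libraries (SD, n = 7).

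Levels are given as CPM, counts normalised to library size with TMM scaling, and 3 reads in a library, the most that a count of 0 leaves possible, corresponded to 0.875 to 1.73 CPM. Intervals and limits of this kind cover counting error only, because the reads carry no molecular identifiers. Fold changes and their standard errors (SE) come from an edgeR fit across 11551 genes, those that averaged 10 or more reads. Of these, 262 were called higher in cKO (2.27%) and 102 lower (0.883%) at an adjusted p under 0.05. The filter passed 8 of the 10 identity genes, all but Ebf2 and Ebf3, and 3 of those 8 (Lhx1, Lhx1os and Cacna2d2) had a mean under 10 reads in the controls, so that they passed through the cKO libraries. All 8 were called higher, which follows from the way they were chosen. In all 3 cKO libraries 8 of the 10 genes lay above every control library, against 3.29% of the genes tested, and this share too was fixed by the choice.

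The start regions of 4 of the transcription factor transcripts are shown because they differ in their density of CpG dinucleotides, which are in capitals. The windows are those of RefSeq on GRCm38.p6, 250 bases before to 50 bases after the start, read 5′ to 3′ on the strand of the gene. The Lhx1 window is chr11:84525485-84525784 on the minus strand, the Nhlh2 window chr3:102009895-102010194 on the plus strand, and the Trp73 windows, both on the minus strand, are chr4:154139826-154140125 (upstream start) and chr4:154097124-154097423 (internal start).
Lhx1: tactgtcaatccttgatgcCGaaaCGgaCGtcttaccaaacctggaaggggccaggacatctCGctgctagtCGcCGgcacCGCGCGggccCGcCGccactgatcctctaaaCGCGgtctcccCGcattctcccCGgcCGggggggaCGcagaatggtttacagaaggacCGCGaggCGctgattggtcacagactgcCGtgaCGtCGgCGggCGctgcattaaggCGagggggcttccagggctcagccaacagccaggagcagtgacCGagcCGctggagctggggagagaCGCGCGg
Nhlh2: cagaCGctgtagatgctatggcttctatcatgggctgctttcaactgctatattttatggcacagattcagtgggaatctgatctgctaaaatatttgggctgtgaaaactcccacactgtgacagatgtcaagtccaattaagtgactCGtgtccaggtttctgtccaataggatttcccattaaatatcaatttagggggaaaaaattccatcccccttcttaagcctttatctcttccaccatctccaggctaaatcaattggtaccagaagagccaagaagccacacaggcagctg
Trp73, upstream start: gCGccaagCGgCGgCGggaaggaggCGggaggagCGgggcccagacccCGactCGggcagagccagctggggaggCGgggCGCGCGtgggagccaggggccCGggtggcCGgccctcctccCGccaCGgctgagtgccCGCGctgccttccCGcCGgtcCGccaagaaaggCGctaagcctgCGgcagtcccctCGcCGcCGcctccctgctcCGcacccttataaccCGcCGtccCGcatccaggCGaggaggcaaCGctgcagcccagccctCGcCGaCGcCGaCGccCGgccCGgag
Trp73, internal start: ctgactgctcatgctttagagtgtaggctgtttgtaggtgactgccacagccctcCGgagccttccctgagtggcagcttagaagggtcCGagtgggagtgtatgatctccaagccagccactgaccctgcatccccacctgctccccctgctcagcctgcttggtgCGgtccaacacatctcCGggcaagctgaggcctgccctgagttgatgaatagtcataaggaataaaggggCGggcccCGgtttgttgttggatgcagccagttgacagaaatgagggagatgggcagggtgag

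These windows held 31 CpGs for Lhx1, 2 for Nhlh2, 39 for the upstream and 6 for the internal start of Trp73, against a median of 7 over 32817 windows of the same length. Among them the Nhlh2 window was nearly free of CpG and that of the internal Trp73 start lay close to the median, whereas the others were rich in it. Of the 10 genes, 6 had a window in the RefSeq table and 7 windows were found, and the windows of Lhx1os, Ebf3 and Cacna2d2 held 33, 46 and 43 CpGs. No window was found for Lhx5, Ndnf, Calb2 and Ebf2.

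The 7 windows were searched on both strands for motifs of the families to which the encoded factors belong. The palindromic EBF motif TCCCNNGGGA was in none of them and in 0.905% of all windows. The LIM-homeodomain core TAATTA was likewise in none of the 7 and in 5.30% of all windows, and the half-site bound by the p53 family was in none and in 8.36%. The E-box CAGCTG, a motif of bHLH proteins, was found once in the Nhlh2 window and once in the upstream Trp73 window, against 16.3% of all windows. These counts describe the letters of short windows and say nothing of binding.

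Trp73 (ENSMUSG00000029026.16, chr4:154056253-154140208, minus strand) encodes p73, a transcription factor of the p53 family that is expressed by Cajal-Retzius cells of the hem and septum and is needed for them to persist. It had 31.3, 20.7 and 34.9 CPM in cKO replicates 1, 2 and 3. In controls Trp73 ran from 0 (replicate 6) over a median of 3.50 to 11.2 CPM (replicate 4). All cKO libraries were thus above the highest control, by a log2 fold change of 2.69 (SE 0.45). The upstream start gives the full-length forms of p73 and the internal start the forms without the activation domain, and counts per gene do not separate them.

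Lhx1 (ENSMUSG00000018698.15, chr11:84518284-84525535, minus strand) and Lhx5 (ENSMUSG00000029595.9, chr5:120431699-120441223, plus strand) encode LIM-homeodomain factors that are close relatives and mark Cajal-Retzius cells of several sources. Lhx1 had 14.3, 12.1 and 21.0 CPM in the 3 cKO libraries. Its control values ran from 0 in 3 libraries over a median of 1.06 to 3.53 CPM, and the groups did not overlap (log2 fold change 3.68, SE 0.54).

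Lhx5 had 46.3, 10.5 and 47.1 CPM in cKO replicates 1, 2 and 3. The controls ran from 0 over a median of 5.30 to 10.6 CPM, so that cKO replicate 2 fell just inside the range of the controls while the others lay far above it. The log2 fold change of Lhx5 was 2.86 (SE 0.49). An antisense gene, Gm27199, overlaps Lhx5, and 112 reads were assigned to it over all libraries. Such overlaps matter little to the count of Lhx5, which came to 371 reads without regard to strand and to 391 when the counts of both strands were summed.

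Lhx1os (ENSMUSG00000087211.7, chr11:84525660-84535831, plus strand) is a long non-coding RNA gene that starts 125 bp from Lhx1 and is read in the opposite direction. The annotated genes do not overlap, so their reads can be told apart although the libraries carried no strand. Lhx1os had 30.3, 13.6 and 37.0 CPM in cKO and from 0 over a median of 1.29 to 3.89 CPM in controls. With a log2 fold change of 3.88 (SE 0.46) it lay close to Lhx1. Both genes were lowest in cKO replicate 2 and highest in replicate 3, an order that Trp73, Lhx5, Nhlh2, Ndnf and Calb2 had too.

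Nhlh2 (ENSMUSG00000048540.8, chr3:102010076-102015492, plus strand) encodes a bHLH factor of young neurons and was the transcription factor gene of the group with the most reads. It had 105, 71.8 and 178 CPM in cKO. The controls ran from 10.1 over a median of 34.1 to 54.6 CPM and none was without reads. Groups did not overlap, and the log2 fold change, 1.84 (SE 0.30), was the smallest among the 8 genes fitted.

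Ebf2 (ENSMUSG00000022053.13, chr14:67233292-67430918, plus strand) and Ebf3 (ENSMUSG00000010476.14, chr7:137193673-137314445, minus strand, on the chromosome that carries the MADM cassettes) encode factors of the EBF family, helix-loop-helix proteins expressed in many differentiating neurons. For Ebf2, 53 reads were counted over the 3 cKO libraries and 3 over the 7 controls, of which 4 had no read. The ratio of these rates was 43.4, given without an interval since Ebf2 was chosen for its higher counts in cKO. Its reads over all libraries came to 56 without regard to strand and to 72 when the counts of both strands were summed. Per library Ebf2 had 5.67, 6.63 and 7.99 CPM in cKO and 0 to 0.577 CPM in controls. Ebf3 had 2.33, 7.41 and 11.8 CPM in cKO and from 0 over a median of 1.07 to 4.50 CPM in controls. Ebf3 therefore overlapped between the groups, with cKO replicate 1 below control replicate 4.

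Ndnf (ENSMUSG00000049001.5, chr6:65671590-65712326, plus strand) encodes a secreted neurotrophic protein that labels Cajal-Retzius cells and later a class of layer 1 interneurons. It had 42.7, 35.9 and 55.1 CPM in cKO. No read was counted in 3 controls (replicates 1, 5 and 6), and the others reached 14.2 CPM, with a median of 3.86 over all 7. The log2 fold change was 3.19 (SE 0.48), with no overlap.

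Calb2 (ENSMUSG00000003657.9, chr8:110137502-110168210, minus strand) encodes calretinin, a calcium-binding protein of Cajal-Retzius cells and of several types of interneurons. Its 240, 125 and 256 CPM in cKO were the highest levels in the group. In controls Calb2 ran from 4.67 over a median of 45.7 to 66.2 CPM, below every cKO library (log2 fold change 2.47, SE 0.43). Cacna2d2 (ENSMUSG00000010066.15, chr9:107399612-107529343, plus strand) encodes an auxiliary subunit of voltage-gated calcium channels. It had 17.3, 6.24 and 13.9 CPM in cKO and from 0 over a median of 1.46 to 5.67 CPM in controls, with no overlap but a narrow gap (log2 fold change 2.50, SE 0.51).

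**Figure D1:**
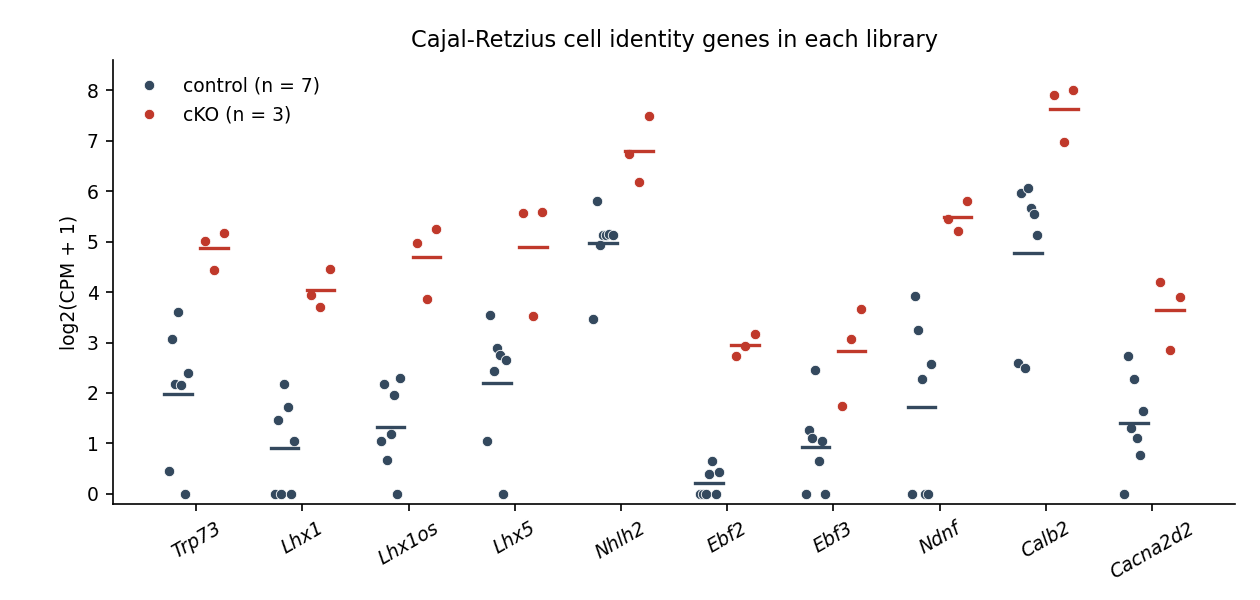
Level of each identity gene as log2(CPM + 1) in the 3 cKO (red) and 7 control (blue) libraries, with 1 point per embryo and a bar at the group mean. Lhx5 and Ebf3 are the genes whose groups overlap, and for 8 of the 10 genes at least 1 control library sits at 0.

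Divided by exon length, Calb2 was the most abundant of the 10 genes in cKO, at 119 ± 41.0 CPM per kb (SD, n = 3), followed by Lhx1os at 38.7 ± 17.2, Nhlh2 at 21.8 ± 10.1 and Lhx5 at 12.9 ± 7.77 CPM per kb. The other genes lay between 0.777 CPM per kb for Ebf3 and 5.23 CPM per kb for Trp73. Calb2 stood above Lhx1os by more than the sum of their SDs, whereas the neighbours from Lhx1os to Trp73 differed by less than that. In controls Calb2 again came first, at 21.9 ± 14.4 CPM per kb (SD, n = 7), and Nhlh2 second, at 6.10 ± 2.39 CPM per kb.

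Among the cKO libraries, replicate 2 had the lowest CPM for 8 of the 10 genes and replicate 3 the highest for 9. Of all genes tested, 33.9% were lowest in replicate 2 and 31.6% highest in replicate 3. Replicate 3 is also the cKO library with few reads outside genes, and the part of this in the order was not tested. Reln did not share this order, since its highest cKO value, 360 CPM, was in replicate 2 (243 in replicate 1 and 277 in replicate 3).

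Controls also differed widely. Control replicate 1 had no read for 5 of the 10 genes and replicate 6 none for 6, whereas replicate 4 had reads for all 10. The highest control value of a gene was in replicate 2 for 4 genes and in replicate 4 for another 4. For the 5 genes that averaged 10 or more reads in the controls alone (Trp73, Lhx5, Nhlh2, Ndnf and Calb2), the coefficient of variation over the 7 controls was 39.3% to 119%, with a median of 73.6%. Over the 5683 genes that met the same limit and had a mean control level in the same range (4.32 to 38.1 CPM) the median was 30.6%. The counts of most of these genes were low, and the part of counting error in the spread was not tested.

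Summed over 9 genes, with the non-coding Lhx1os left out, the level was 505, 296 and 626 CPM in the cKO libraries, a mean of 476 ± 167 CPM (SD, n = 3). In the controls the sum ran from 16.6 in replicate 1 over a median of 86.2 to 157 CPM in replicate 2, with a mean of 89.6 ± 47.2 CPM (SD, n = 7). The lowest cKO library was above the highest control, and the means differed 5.31-fold. Calb2 and Nhlh2 made up 66.4% to 69.4% of the sum in cKO and 64.3% to 97.8% in controls. Without them, the sum of the other 7 genes was 150 ± 46.9 CPM in cKO and 18.4 ± 14.9 CPM in controls, an 8.17-fold difference.

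**Figure D2:**
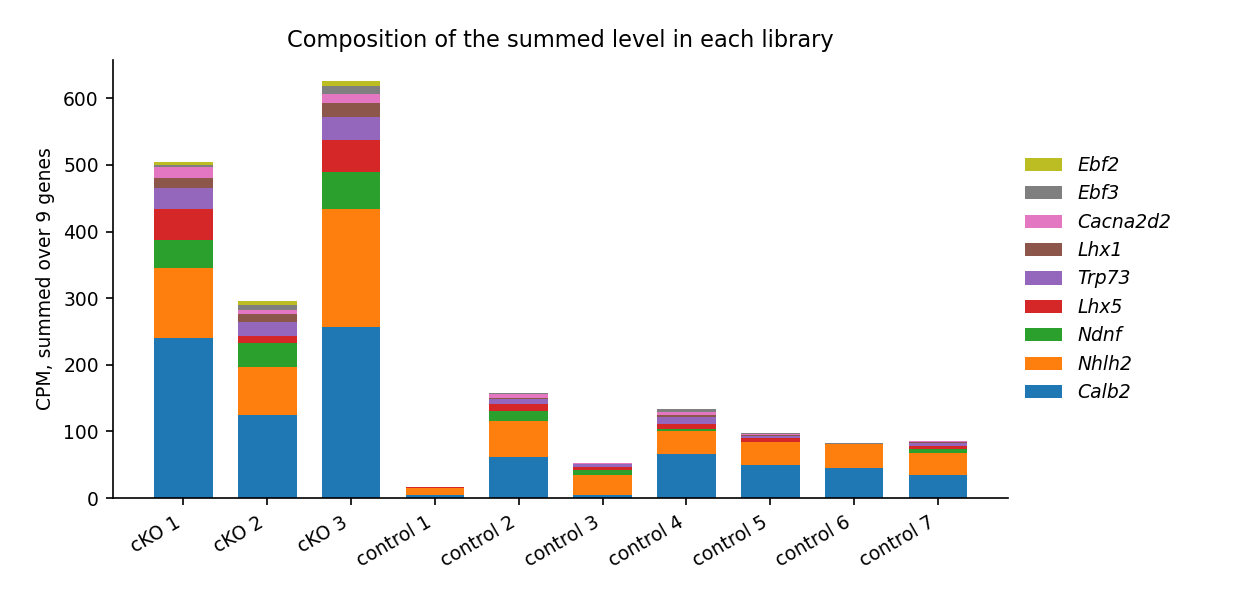
Stacked CPM of 9 identity genes (Lhx1os left out) in each library, with the bars starting at 0. The cKO libraries sum to 296 to 626 CPM and the controls to 16.6 to 157 CPM, and in control replicates 1 and 6 Calb2 and Nhlh2 account for 91.3% and 97.8% of the bar.

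Within the 5 libraries with fewer reads outside genes, the sum was 626 CPM in the single cKO library and 16.6 to 157 CPM in the 4 controls, a 7.32-fold difference of means. In the other 5 it was 296 and 505 CPM in the 2 cKO libraries and 53.1 to 134 CPM in the 3 controls, a 4.22-fold difference. Since the genes were chosen for their higher counts in cKO, these values are a description, and the part of the share of reads outside genes was not tested.

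The next question was whether other genes of Cajal-Retzius cells were changed in the same comparison. Of 17 further genes listed for these cells, 15 could be tested, 8 rose and none fell, against 2.27% of all genes tested that rose. Their median log2 fold change was 1.46, and that of all genes was 0.01. Of the 15, 11 had a mean of 10 or more reads in the controls alone, and 5 of these rose, while Car10 and Zic2 were among the 3 called genes that passed the filter through the cKO libraries. This list was written with earlier results on Reln known. Reln, the secreted ligand, rose from 43.6 ± 30.6 to 293 ± 60.5 CPM (log2 fold change 2.71, SE 0.41, adjusted p = 0.000949). Zic1, Zic2 and Zic5, zinc-finger factors of the hem and septum lineages, rose by log2 fold changes of 1.68 to 4.32, while Zic4 did not pass the test (0.96, SE 0.68). The highest of these was that of Zic2, whose values were widely spread in cKO, from 3.78 to 52.0 CPM, and reached 2.25 CPM in controls.

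Of the other called genes, Nhlh1 and Car10 were named after their values were seen. Nhlh1, the closest relative of Nhlh2, rose from 44.9 ± 17.3 to 103 ± 7.61 CPM (log2 fold change 1.21, SE 0.25, adjusted p = 0.0113). Car10, a carbonic anhydrase-related protein, had 14.7 to 16.7 CPM in cKO and from 0 in 3 libraries over a median of 0.353 to 7.08 CPM in controls, and DESeq2 did not call it. Without cKO replicate 3 the count of called genes was 5, and Nhlh1 and Zic5 were among those lost. Zic2 was lost without cKO replicate 1, and Zic5 also without cKO replicate 2 or control replicates 1 or 4.

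Genes of the list that other cortical cells share were among the 7 that did not pass. Tbr1, a factor of early-born projection neurons as well as Cajal-Retzius cells, had a log2 fold change of -0.18 (SE 0.19, adjusted p = 0.705), and Eomes, which also marks intermediate progenitors, 0.18 (SE 0.24, adjusted p = 0.777). Barhl2, a homeobox gene of the thalamic eminence, was too low to test, with 42 reads in cKO and 1 in controls (ratio of rates 103, exact 95% counting interval 17.5 to 4168).

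Among 15 relatives of the identity genes in the same families, 9 could be tested and Nhlh1 alone passed, against 2.27% of all genes tested that rose, with a median log2 fold change of 0.79. At an unadjusted p under 0.05, 5 of the 9 were higher and none lower, against 9.25% and 7.11% of all genes tested. Nhlh1, Ebf1 and Calb1 stand in this list and in the one above. Trp53 (-0.18, SE 0.15), Lhx2 (-0.36, SE 0.18) and Cacna2d1 (0.27, SE 0.20), the most abundant p53, LIM-homeodomain and alpha-2-delta relatives, did not pass, nor did Calb1 (1.46, SE 0.68), Cacna2d3 (0.64, SE 0.29) and Lhx9 (0.92, SE 0.33), although Lhx9 lay above every control in the cKO libraries. Trp63 had a mean of 0.4 reads per library and Lhx3 none, so that a change in them was not detectable at this depth. Ebf1 (log2 fold change 1.63, SE 0.61, adjusted p = 0.170) was called by limma-voom, with no filter and without control replicate 2, and Nhlh1 was no longer called without cKO replicate 3.

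Genes of the regions from which Cajal-Retzius cells come were examined in 3 lists. None of the 6 tested genes of the cortical hem and choroid plexus list was called, nor any of the 5 of the septum and antihem list or the 3 of the diencephalon list. At an unadjusted p under 0.05, 4, 0 and 2 genes of these lists were higher and none lower, against 9.25% of all genes tested that were higher and 7.11% that were lower. DESeq2 and limma-voom also called none. Median log2 fold changes were 0.96, 0.32 and 0.92. Rspo3 and Dkk3, secreted Wnt regulators and the most abundant tested hem genes, had log2 fold changes of 0.00 (SE 0.25) and 0.85 (SE 0.28, adjusted p = 0.127). Ttr, a choroid plexus transport protein, had 5.46 to 54.2 CPM in cKO and 0 to 19.8 CPM in controls, of which 4 had no read (log2 fold change 2.52, SE 0.73, adjusted p = 0.0753). Without cKO replicate 2, Dkk3 and Ttr were called (2 genes), as was Ttr alone without control replicate 2.

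In the septum and antihem list the growth factor Nrg1 (0.32, SE 0.25) and the Wnt antagonist Sfrp2 (-0.62, SE 0.33) had the highest levels. In the diencephalon list they were Lhx9 (0.92, SE 0.33, adjusted p = 0.164), which is also a LIM-homeodomain relative, and Tcf7l2 (0.16, SE 0.36). Lef1, a transcription factor of the Wnt pathway and the other tested gene of that list, had 27.7 to 36.7 CPM in cKO and 0.721 to 21.96 CPM in controls, without overlap (log2 fold change 1.17, SE 0.37, adjusted p = 0.106), while Irx1, Irx2 and Irx3 had no read in any library. Of the secreted hem signals, Wnt2b and Wnt3a had means of 0.3 and 1.4 reads per library, whereas Wnt5a had 18.7 to 26.9 CPM in cKO and 4.96 to 15.7 CPM in controls, without overlap (log2 fold change 1.07, SE 0.32, adjusted p = 0.0843). Bmp7 had a log2 fold change of 1.14 (SE 0.54, adjusted p = 0.297). Lhx2, a factor that restricts hem and Cajal-Retzius fate in the early cortex, had a log2 fold change of -0.36 (SE 0.18, adjusted p = 0.319) and did not pass.

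**Figure D3:**
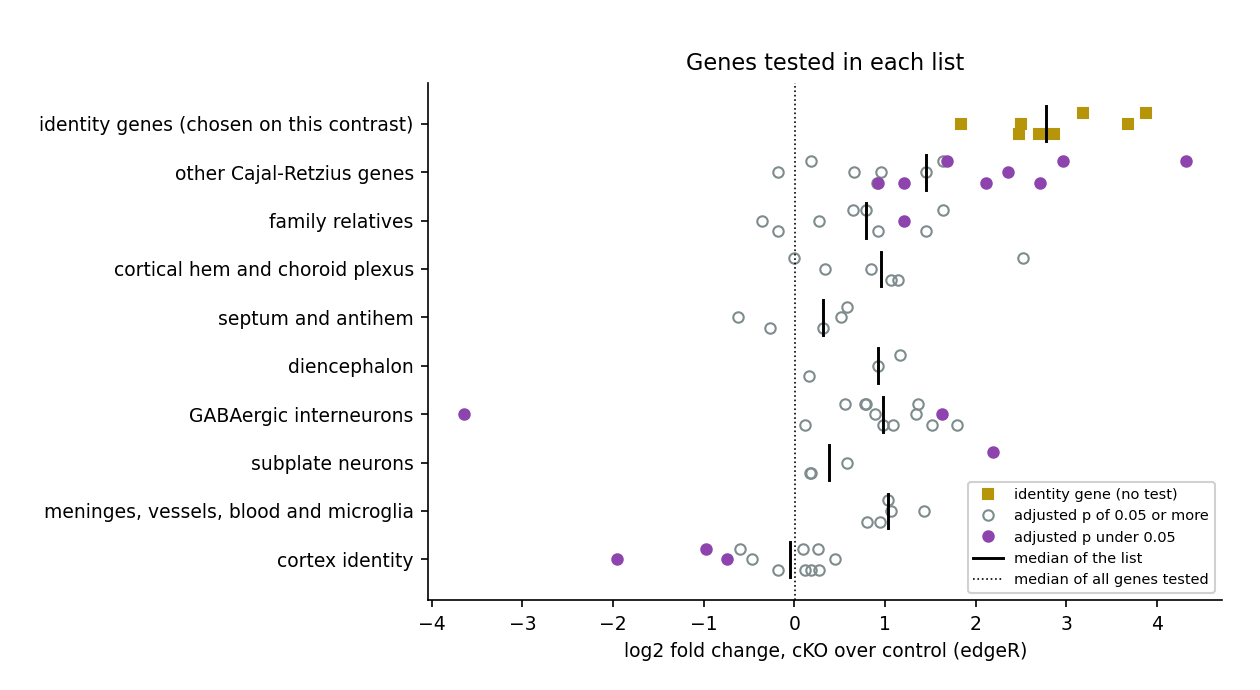
The log2 fold change (cKO over control, edgeR) of each tested gene by list, where filled purple circles passed an adjusted p of 0.05, short black lines are list medians and the dotted line is the median of all genes tested. The identity genes, shown as squares without a test, run from 1.84 to 3.88, and 8 of the 15 tested genes of the other Cajal-Retzius list are filled.

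Since Calb2 and Ndnf are also found in other cells, markers of other cell types were measured alongside, although the sort for MADM-labelled cells of the Emx1+ lineage should leave out interneurons, microglia, vessels and blood. Among 18 markers of GABAergic interneurons 13 could be tested, of which Dlx2 rose (log2 fold change 1.63, SE 0.41, adjusted p = 0.0354) and Npy, a neuropeptide, fell (-3.64, SE 0.83, adjusted p = 0.0205), against 2.27% of all genes tested that rose and 0.883% that fell. At an unadjusted p under 0.05, 8 of the 13 were higher and 1 lower, against 9.25% and 7.11% of all genes tested. Their summed level was 132 to 256 CPM in cKO and 111 to 321 CPM in controls. Npy made up 17.1% to 72.4% of the sum in controls and 0.528% to 6.73% in cKO, and the sum without it was 171 ± 59.3 CPM in cKO (SD, n = 3; 128 to 239) and 88.3 ± 37.7 CPM in controls (SD, n = 7; 49.7 to 167). In this list 12 of the 13 log2 fold changes were above 0 (median 0.98). Gad1 and Gad2, which encode the enzymes that make GABA, had log2 fold changes of 1.08 (SE 0.52) and 1.34 (SE 0.55) and did not pass, and Slc32a1, the vesicular GABA transporter, had a mean of 0.5 reads per library. Htr3a and Adarb2 were too low to test, with lowest cKO values of 1.56 and 1.95 CPM and highest control values of 1.17 and 1.73 CPM. Dlx2 kept its call without cKO replicate 2 or control replicates 1 or 2 and lost it without any other library, and Npy lost its call without cKO replicate 1 or 2 and in limma-voom. The part of GABAergic cells in the levels of Calb2 and Ndnf was not tested.

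Of 7 subplate markers 4 could be tested and 1 rose, against 2.27% of all genes tested that rose. It was Tmem163, a zinc transporter, which went from 12.97 ± 2.76 to 58.9 ± 28.9 CPM (log2 fold change 2.19, SE 0.29, adjusted p = 0.000261). Nr4a2 (0.19, SE 0.38), Nxph4 (0.58, SE 0.38) and Hs3st4 (0.17, SE 0.32) did not pass. At an unadjusted p under 0.05, 1 of the 4 was higher and none lower, against 9.25% and 7.11% of all genes tested. Cplx3 was near 0, with a mean of 0.1 reads per library. The summed level of this list was 133 to 420 CPM in cKO and 122 to 243 CPM in controls. Markers of meninges, vessels, blood and microglia summed to 81.1 to 2300 CPM in cKO and 16.4 to 1640 CPM in controls, with the highest sums in the libraries rich in haemoglobin reads (2300 CPM in cKO replicate 1, 1385 in control replicate 2 and 1640 in control replicate 5). None of the 5 tested genes of that list of 22 was called, against 2.27% of all genes tested that rose and 0.883% that fell. At an unadjusted p under 0.05, 1 of the 5 was higher and none lower, against 9.25% and 7.11%. DESeq2 and limma-voom also called none of them, and 17 genes of the list were too low to test. Hbb-bs and Hba-a1, the most abundant, had log2 fold changes of 0.80 (SE 1.29) and 1.07 (SE 1.27).

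Of 12 genes of cortical identity, none rose and 3 fell, against 2.27% of all genes tested that rose and 0.883% that fell. The projection neuron factors Neurod6 (-0.98, SE 0.14, adjusted p = 0.000471) and Neurod2 (-0.75, SE 0.14, adjusted p = 0.00565) were among those that fell. The median log2 fold change of this list was -0.04.

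The spread among the 7 controls offered a comparison that did not enter the choice of the genes. Over these libraries, log2(CPM + 1) of the summed identity genes was compared with 4 other measures by exact permutation tests over all pairings, two-sided, with Benjamini-Hochberg adjustment over the 4. For the sum of the Zic genes, Pearson's r was 0.860 (exact permutation p = 0.0161, adjusted p = 0.0321) and Spearman's rho was 0.750 (exact permutation p = 0.0663, adjusted p = 0.110). Without control replicates 1 and 2, the libraries farthest from the median, r was 0.287, so that the relation rested on them.

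For Reln, r was 0.452 (exact permutation p = 0.302, adjusted p = 0.302) and rho was 0.679 (exact permutation p = 0.110, adjusted p = 0.110), and r was 0.043 without the same libraries. Control replicate 6, with 2.86 CPM of Reln, held 82.2 CPM of the sum, of which 97.8% was Calb2 and Nhlh2. These 2 genes were then left out because of that library, so the values for the other 7 genes are given without a test. For Reln, r was then 0.935 and rho 0.964, and r was 0.772 without control replicates 1 and 6, which were then the farthest from the median. For the Zic sum r was 0.834 with the same 7 genes, and 0.713 without these libraries.

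For the sum of GABAergic markers r was -0.866 (exact permutation p = 0.0113, adjusted p = 0.0321) and rho -0.679 (exact permutation p = 0.110, adjusted p = 0.110). Npy held a large share of that sum in controls, as given above, and without it, an alternative chosen after seeing the data, r was 0.021, so that the relation rested on Npy. For the markers of meninges, vessels, blood and microglia r was 0.534 (exact permutation p = 0.212, adjusted p = 0.283) and rho 0.750 (exact permutation p = 0.0663, adjusted p = 0.110). Without control replicates 1 and 2, r was -0.631 for the GABAergic and 0.451 for the latter markers.

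**Figure D4:**
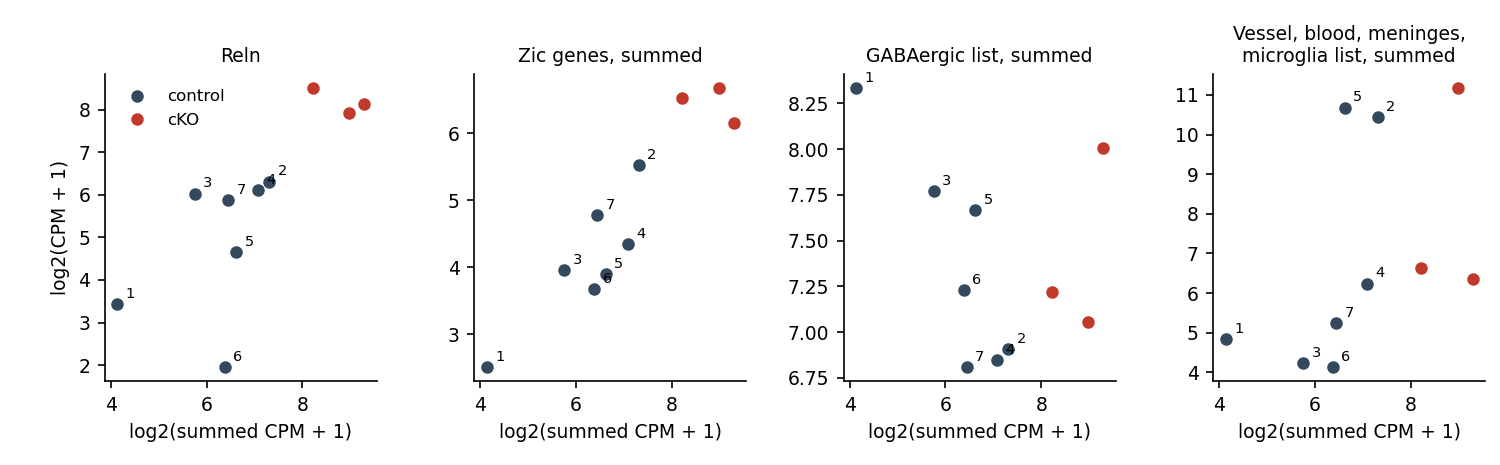
Each panel plots a measure, as log2(CPM + 1), against the summed level of 9 identity genes on the same scale, for 7 control (blue, numbered by replicate) and 3 cKO (red) libraries. Among controls, replicate 1 is lowest in the identity genes and in the Zic sum, and replicate 6 stands low for Reln at a middle level of the identity genes.

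The tested genes whose pattern was most like that of the identity genes were found from the mean standardized log2(CPM + 1) of 7 of them over all 10 libraries. The 8 most similar were Gpx3, E130308A19Rik, Eif4ebp1, Insm2, Zcchc12, Thsd7b, Mavs and Nhlh1, with Pearson's r of 0.930 to 0.947. Since the genotypes separate on both sides, these values largely describe the difference between them. Among the 7 controls alone the same genes had r of 0.785 to 0.865. They were chosen over libraries that include these 7, so that range is no separate check. Eif4ebp1, which encodes an inhibitor of cap-dependent translation, had 79.6 to 126 CPM in cKO and 5.05 to 20.2 CPM in controls. Zcchc12, a transcriptional co-activator, had 67.1 to 130 CPM in cKO and 1.07 to 30.8 CPM in controls. Insm2, a zinc-finger factor of neuroendocrine and neuronal cells, had 5.07 to 17.7 CPM in cKO and 0 to 3.90 CPM in controls. Likeness of this kind was computed within the same libraries and depth, and is given as a description.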

How the data were processed

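The libraries were made by Smart-Seq2 from polyadenylated RNA of sorted cells. The authors merged technical replicates, aligned reads to GRCm38 with STAR 2.5.0c (bedtools 2.26.0 for conversion), kept unique alignments and deposited raw counts per gene of GENCODE M16 in 3 columns, of which the first, ignoring strand, was used here. About 50.3% to 50.5% of stranded reads were sense, so the libraries were unstranded, and reads on overlapping genes are left out of that count. Symbols and positions came from GENCODE M21 on GRCm38 (50604 of 53379 genes matched with version, 2670 without, 105 not), and promoter windows from RefSeq. Genotypes were compared with edgeR 4.0.16 (TMM, glmQLFit, glmQLFTest, genotype alone, Benjamini-Hochberg) in R 4.3.3 over genes averaging 10 or more reads, and SEs are the absolute log2 fold change divided by the square root of the F statistic. The procedure was tested on simulated data. Alternatives used DESeq2 1.42.0, limma 3.58.1, other scalings, filters and columns, a covariate, a block and each library left out. No 2 libraries of the same genotype agreed within counting noise (24 pairs). Figures were drawn with matplotlib. The identity genes and all lists were chosen with earlier results of these data known. The genes named are all identity genes, Reln and Zic genes, up to 3 called genes with the smallest p per list and direction (otherwise the 2 with the highest level), Cdkn1c and the 8 most similar genes; Car10 and further list members were named after their values were seen. Some listed genes were tested and counted but are not reported here by name. Embryos were separate individuals of unstated litters, so p-values measure the spread between embryos. Sex was not used.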

Additional observations from a re-analysis of the deposited data

Results flagged for a closer look

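Dixon's test over the 7 controls set single libraries apart for 4 of the 33 measures examined, and chance sets apart about 1 in 20 such groups. Ebf3 was highest in control replicate 4, at 4.50 CPM, with the next control at 1.42 CPM. Car10 was highest in control replicate 2, at 7.08 CPM, and the next was 2.92 CPM. The only control read of Barhl2 was in control replicate 4 (0.321 CPM), a count for which the test is void, since 1 read among libraries at 0 is always set apart. The summed diencephalon list was lowest in control replicate 1, at 10.5 CPM, whereas the next control had 57.2 CPM. In the same library 5 of the 10 identity genes had no read.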

How the results depend on the processing

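The count of identity genes past the threshold was 6 with DESeq2 (Trp73 and Ndnf not called), 7 with a replicate block or without cKO replicate 1, 9 with filterByExpr, 10 with no filter and 8 otherwise, and the log2 fold changes of the 8 genes other than Ebf2 and Ebf3 kept their sign (1.43 to 4.74, the highest for Lhx1 with a replicate block). Over all genes, 213 were called with a replicate block and 961 with no filter, against 364, and leaving out a library gave 271 to 424. The replicate numbers did not pair the samples, since same-numbered libraries deviated with r of 0.046, -0.101 and -0.214 and 0 of 6 libraries correlated best with their own number. Of the other Cajal-Retzius genes 6 were called with the block, and 5 to 8 with a library left out. Of the relatives, 2 were called by limma-voom, 4 with no filter and 0 to 2 with a library left out. With no filter, 4 source region genes and 14 markers of other cells were called, and with a library left out 0 to 2 and 1 to 3, the lowest without cKO replicate 1. DESeq2 called 510 genes in all and limma-voom 297. The log2 ratio of the summed level stayed between 2.08 and 2.87 under other scalings, columns and sets of libraries, was 3.03 without Calb2 and Nhlh2, and was 2.16 to 2.66 with a library left out. Within controls, r for the Zic sum was 0.647 to 0.890 with a library left out, and no longer passed without replicates 1, 2, 3, 4 or 6. For the GABAergic list r was -0.939 to -0.675, lost its call without the same replicates, was -0.620 without Calb2 and Nhlh2, and turned to 0.021 without Npy. For Reln it was 0.244 to 0.800 with a library left out, and 0.935 without Calb2 and Nhlh2, which were left out after seeing the data. The causes of these shifts were not tested. Low counts limit the depth: 8 identity genes had a control library at 0.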
